A study of Apeltes quadracus with 85 samples.

Results

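A set of 74 sites outside the HOXDB region was found in 11 fry of the fourspine stickleback *Apeltes quadracus*. At each, heterozygous and homozygous fish were divided as they would be at a marker of a HOXDB haplotype. At 30 of them the homozygous fish did not all carry the same base, so no base there marked a haplotype. Sites were single-base positions at which allele-counted RNA-seq reads were reported, and the region left out was chromosome 6 from 15000000 to 17000000. A site was taken when every fish had at least 20 reads summed over its tissues, when the less frequent base made up at least 20% of reads in every fish of exactly 2 of the 3 genotypes, and when it made up at most 5% in every fish of the remaining genotype. Of 513939 sites listed in any library, 208804 had the reads in all 11 fish, and 207305 of these lay outside the region. Of those, 35907 had the less frequent base at 20% or more in some or all fish, called variable here, and 74 met the rule. They fell into 3 sites with the pattern of the H haplotype, 42 with that of L and 29 with that of LHR, in 40 loci when sites within 10 kb were merged. The allele shares themselves chose the sites, so the shares per fish are given as a description and carry no test.

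Hox genes encode transcription factors that specify position along the body axis, and the HOXDB genes form a cluster on stickleback chromosome 6. The dorsal spines of sticklebacks are serially repeated skeletal elements, and their number and length vary between populations. A base that is present on only 1 of the haplotypes that segregate in a group of fish lets reads be assigned to that haplotype, and bases at unlinked loci can show the same pattern over a small number of fish.

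The study compared the expression of the parental HOXDB alleles within heterozygous fry, using the anal fin as the control tissue. The fry came from Louisbourg clutches, were fertilised in vitro and raised to 11 to 13 mm (finfold stage, stage 31), and had been genotyped at HOXDB. The genotypes were H/L (4 fish), L/LHR (4 fish) and H/LHR (3 fish), LHR being a recombinant of the low and high types. Every fry was untreated and each carried a pair of different HOXDB haplotypes, so no homozygote for H, L or LHR is among them, and the clutch of each fish is not given in the labels. The 8 tissues were both median fins, anal (AF) and dorsal (DF), the blank pterygiophore, a fin support that bears no spine (Pter), and the spines of the back, numbered DS1 to DS4 from the front with DSL as the last. DS4 was present in all H/L and H/LHR fish and in 1 of the 4 L/LHR fish, which gave 85 libraries with 2.15 M to 46.6 M allele-counted reads (median 35.2 M, M being 1e6), 6 of them below 10 M.

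The data did not bear out the name "tag" for 30 of the 42 L sites. At a true L marker the H/LHR fish, which lack L, should all be homozygous for the same base. At these 30 sites the 3 H/LHR fish were homozygous for different bases, so that no base there marked the L haplotype, and they are called both-base sites here. At all 21 sites on chromosome 19 H/LHR replicates 1 and 3 had the reference base and replicate 2 the alternate base. At all 8 sites on chromosome 4 replicates 1 and 2 had the base that replicate 3 lacked, and 1 site on unplaced sequence divided the fish as chromosome 19 did. The other 44 sites, 3 H, 12 L and 29 LHR, had the same base in every homozygous fish. At these, a base is said to mark a haplotype if all fish with that haplotype had it and the others lacked it or nearly so. This describes the 11 fish only, and linkage of these sites to HOXDB was not tested. Inside the HOXDB region 151 sites met the rule (15 H, 112 L and 24 LHR), and 0 of them were both-base sites.

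**Figure D1:**
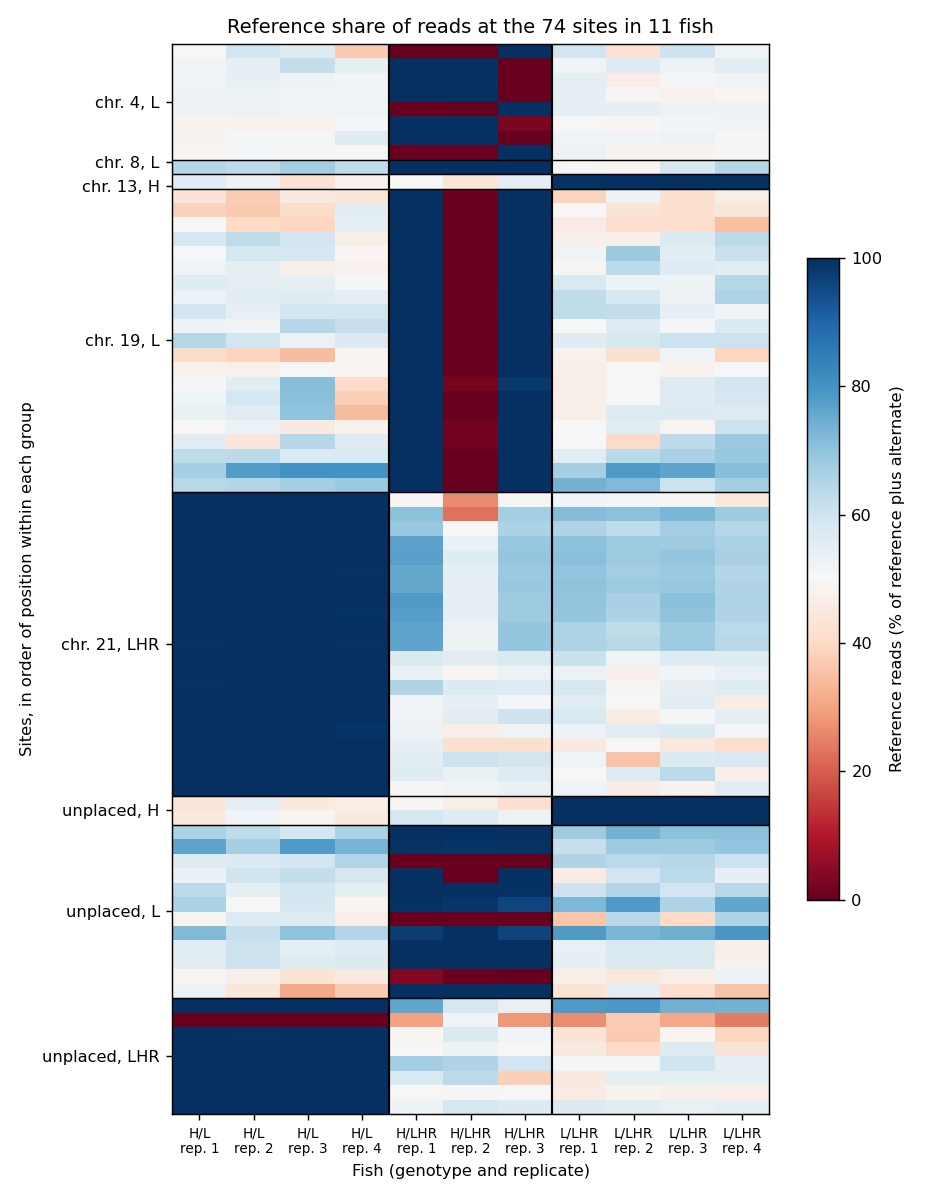
Reference base as a percentage of reference plus alternate reads (colour, 0 to 100%) at the 74 sites (rows, grouped by chromosome and haplotype pattern) in the 11 fish (columns). The 21 chromosome 19 rows change colour from dark blue to dark red within the H/LHR fish, and the 21 chromosome 21 rows are dark blue in all 4 H/L fish.

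The rule was met rarely outside the region. Among sites heterozygous in every fish of both genotypes that share a haplotype, the third genotype was homozygous in all its fish at 3 of 2982 sites for H (0.101%), 42 of 2785 for L (1.51%) and 29 of 2739 for LHR (1.06%). Inside the region the same shares were 38.5% of 39 sites, 77.8% of 144 and 46.2% of 52. No site of chromosome 6 outside the region met the rule, so no nearest or farthest site on either side can be named, and the last position listed on chromosome 6 was 16796585. The 3 HOXDB variants that the study names served as a check of the genotype labels. At the HOXD9B variant A16027923G the reference base made up 100% of reads in the 4 H/L fish and 38.2% to 59.9% in the 7 fish with LHR. At the HOXD9B variant A16028519G it made up 49.2% to 64.2% in the 8 fish with L and 0% to 0.446% in the 3 without. The HOXD11B variant C16020516T was homozygous in the 4 L/LHR fish (reference share 99.3% to 100%) and heterozygous in the others, but it missed the rule because H/L replicate 1 had a reference share of 80.8%. The labels and these 3 variants were thus concordant in all 11 fish.

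The 74 sites lay in 40 loci, 16 of them on sequence not placed on a chromosome and 10 on chromosome 21. Chromosomes 19 and 21 each held 21 sites, chromosome 4 held 8, chromosomes 8 and 13 held 1 each, and 22 were on unplaced sequence. As a share of the variable sites this was 1.51% on chromosome 19, 1.83% on chromosome 21, 0.378% on chromosome 4, 0.0812% on chromosome 8, 0.0639% on chromosome 13 and 0.476% on unplaced sequence, and 0 on the other chromosomes. Positions are those of the study's reference-guided assembly of *Apeltes* scaffolds, in which distances on unplaced sequence hold only where its pieces are joined in the right order. On the placed chromosomes the study ordered the scaffolds by *Gasterosteus*, assuming a similar structure in both genera. Spans and positions there rest on that assumption too, which was not tested. No annotation of the assembly was used, so the gene and the exon or intron around each site are not given.

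The chromosome 19 sites lay between positions 85094 and 393512, close to the start of the chromosome, in 7 loci. Of 32 variable sites in this span 21 met the rule (65.6%), and 1 more followed the L pattern in 10 of 11 fish. In the HOXDB region, between the first and last site that met it (15670406 and 16755173), 151 of 213 variable sites did (70.9%), counting all 3 patterns. Each span given here begins and ends on a site that met the rule, so these shares depend on that choice of ends. The 3 variable sites before the first chromosome 19 site followed the pattern in at most 8 fish, and the 212 variable sites in the 1.5 Mb after the last followed it in at most 9. The chromosome 4 sites lay between positions 3887793 and 4324065, in 5 loci, and were 8 of 34 variable sites (23.5%). The chromosome 21 sites spread over the widest span, from 825883 to 3480536, in 10 loci, and were 21 of 176 variable sites (11.9%). Here 151 of the variable sites followed the LHR pattern in 8 fish or fewer, so sites with and without the pattern alternated along the span.

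**Figure D2:**
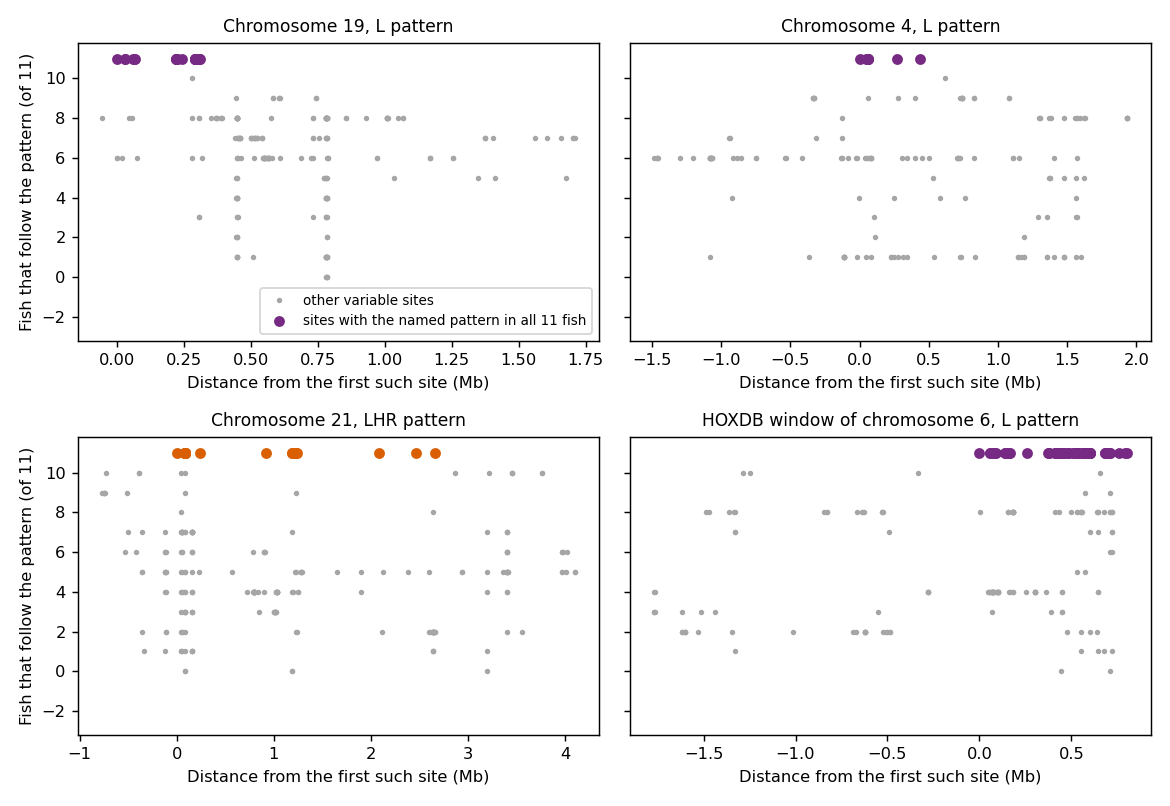
Number of the 11 fish whose genotype follows the named haplotype pattern (vertical axis) against distance in Mb from the first site with that pattern (horizontal axis), for variable sites on chromosomes 19, 4 and 21 and in the HOXDB part of chromosome 6. Coloured points followed the named pattern in all 11 fish, grey points are all other variable sites, which on chromosome 6 include sites with the H or LHR pattern, and the coloured chromosome 19 sites end within 0.5 Mb of their start.

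Depth at the sites varied widely. The reads summed over all libraries ranged from 398 at A393512G on chromosome 19 to 51193 at G20059134A on unplaced sequence, with a median of 1887. Intervals given below for shares of reads cover counting error only. They treat reads summed over fish as independent, so they leave out the spread between fish and reads copied by PCR. At G20059134A, an LHR site, the alternate base was absent from the H/L fish and thus marks LHR in the sense defined above. It made up between 49.7% and 54.3% of reads in the 7 fish with LHR, with a mean of 51.8% ± 1.74 (SD, n = 7). Its level was similar over tissues, with medians over fish from 16.9 RPM (reads scaled to 1e6 allele-counted reads) in DS1 to 22.7 RPM in Pter. The next LHR site by reads, C908158T on chromosome 21, had 6032 reads.

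Among the L sites the most reads were at G3946110C and T3946420A on chromosome 4, with 16505 and 14095. Both belong to the locus at 3945641 to 3946420, which held 4 sites and 41314 reads. At G3946110C the 8 fish with L had reference shares between 51.3% and 54.2%, H/LHR replicates 1 and 2 had 0.539% and 0.107%, and replicate 3 had 100%. At T3946420A, 310 bases away, the same fish were divided the other way round, with 100% in H/LHR replicates 1 and 2 and 2.88% in replicate 3. Which of the bases lies on L in a given heterozygous fish cannot be read from such a site.

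The 5 L loci with the most sites were, besides this one, 3 on chromosome 19 and 1 on unplaced sequence. The chromosome 19 loci were 374516 to 376887 (5 sites, 12204 reads), 305582 to 307488 (5 sites, 8995 reads) and 390138 to 393512 (4 sites, 2331 reads). At A374516T, the deepest chromosome 19 site with 8166 reads, the 8 fish with L had reference shares of 46.9% to 50.3%, and H/LHR replicates 1, 2 and 3 had 100%, 0.639% and 100%. At the last locus of the block the shares departed from an even split, and G392030T had a mean reference share of 74.6% over the 8 heterozygous fish. The unplaced locus at 17605445 to 17606234 held 4 sites with 8852 reads (A17605445T, G17605448A, A17605513G and C17606234A). It was the only L locus with more than 2 sites at which all 3 H/LHR fish shared a base. The alternate base there marked L at 3 of the 4 sites and the reference base at A17605513G. At A17605445T the reference share was 54.5% to 60.9% in the H/L fish, 47.6% to 57.5% in the L/LHR fish and 100% in each H/LHR fish.

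The LHR locus with the most sites lay on chromosome 21 from 908051 to 909797, with 10 sites and 43918 reads. Its last 8 sites fell within 23 bases and shared reads, so they are close to a single measurement. They were G909775A, C909776G, G909779T, G909781C, A909786C, T909788C, C909796T and A909797G. Over these 8 sites the reference share had a median of 76.6% in H/LHR replicate 1, 54.1% in replicate 2 and 69.0% in replicate 3, and medians of 64.9% to 69.7% in the 4 L/LHR fish. H/LHR replicate 2 therefore lay below the other 6 fish at each of them. It also lay apart at T908051G, with a reference share of 22.8% against 67.0% to 72.7% in the other 6 fish, and at G825883A, with 26.4% against 44.9% to 51.4%. Over all 29 LHR sites this fish had the lowest reference share at 12. The 12 include the sites just described, all but G825883A in the locus at 908051 to 909797, so they are not separate measurements. The other LHR loci with more than 1 site, at 2009656 to 2011696 and at 2052998 to 2054693, had mean shares of the LHR base of 45.8% and 46.9%. The remaining named LHR locus, G1066948A, had 43.5%.

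The 3 H sites lay in 3 places. G15892123A on chromosome 13 had 2471 reads, A27054517T on unplaced sequence had 853 and A20075617T on unplaced sequence had 738. The alternate base marked H at all 3, with mean shares in the 7 fish with H of 50.3% ± 4.96, 48.9% ± 5.20 and 53.0% ± 4.26 (SD, n = 7 each). At G15892123A the reference share was 42.9% to 55.6% in the H/L fish, 44.1% to 54.6% in the H/LHR fish and 99.5% to 100% in the L/LHR fish. A20075617T stood 3769 bases from G20079386A, which had the pattern of LHR, so neighbouring positions of unplaced sequence held sites of both classes.

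Across the 44 sites with the same base in all homozygous fish, the base that marks the haplotype was the alternate base at 40 and the reference base at 4. Its mean share in the heterozygous fish ranged from 28.4% to 61.2% (median 44.3%) and was below 50% at 34. The mean reference share in heterozygous fish had a median of 55.7% over the 44 sites and 52.0% over the other variable sites outside the region. The 44 sites lay in 27 loci, and the 10 sites of the chromosome 21 locus at 908051 to 909797 were all among the 34. The SD between fish had a median of 5.81 percentage points over the 44 sites. The means of both heterozygous genotypes at the same site differed by a median of 1.61 points at H sites, 2.66 at L sites and 1.71 at LHR sites, the L figure including both-base sites. They differed by more than 10 points at 4 of the 74 sites: G9588519A (17.1 points), T908051G (17.2), C169754A (13.4) and T7525916C (10.4), chosen after the values were seen.

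The files also give the number of reads set aside at each site for low mapping quality, and these were over 10% of all overlapping reads at 18 of the 74 sites (24.3%), 13 of them LHR, 5 L and 0 both-base sites. Of the other variable sites outside the region 9.48% passed that value, and 1.99% of the sites with the pattern inside the HOXDB region did. At 15 of these 18 sites the mean reference share was over 60%, against 5 of the 56 with fewer such reads. The medians were 66.3% and 52.7%. The 18 sites lay in 8 loci, and 10 of them shared a single locus on chromosome 21. Counted by locus, the mean was over 60% in 5 of these 8, against 3 of the 33 loci with sites of fewer such reads, where 1 locus held sites of both kinds. C7582770T on unplaced sequence had the most, with 71.9% of reads of low mapping quality and a mean reference share of 48.3%. Base changes between purines or between pyrimidines (transitions) made up 62.2% of the 74 sites and 59.3% of the other variable sites.

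**Figure D3:**
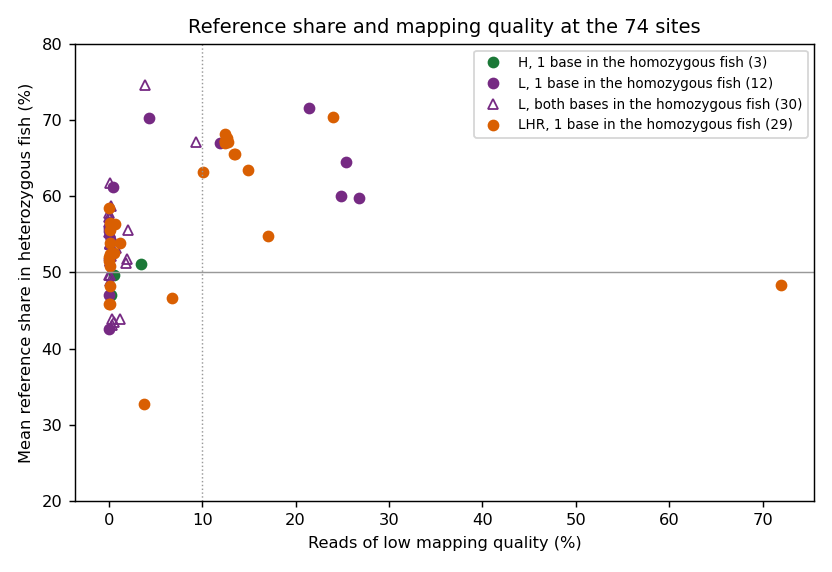
Mean reference share over heterozygous fish (vertical axis, %) against the percentage of reads of low mapping quality (horizontal axis) for the 74 sites. The dotted line marks 10%, and 15 of the 18 sites to its right lie above a share of 60%.

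The sites nearest to the limits of the rule had the following values. The fewest reads in a fish were 20 at A393512G and 21 at G392030T, and 2 sites that otherwise had a pattern were left out with 19, at 959969 on chromosome 21 and at 5606375 on unplaced sequence. The lowest minor share in a fish called heterozygous was 20.0% at G392030T and 20.9% at G11743172A, and sites at 11743140 and 3096870 on unplaced sequence were left out with 19.5% and 18.5%. The highest minor share in a fish called homozygous was 4.21% at G9588519A and 3.72% at G11743172A, and sites at 12308774 on unplaced sequence and 2009650 on chromosome 21 were left out with 6.90% and 8.79%. A further 76 sites followed the H pattern in 10 of 11 fish, 153 the L pattern and 83 the LHR pattern. The fish that broke it most often was L/LHR replicate 1 for H (39 sites), H/LHR replicate 3 for L (78) and L/LHR replicate 2 for LHR (42).

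Whether the allele ratio at these sites differed between tissues was then tested, since the rule summed the tissues and did not use this difference. Each tissue was compared with AF by edgeR's quasi-likelihood test on the reads of both bases, over all 1845 to 2486 sites per comparison that were heterozygous in every fish of both genotypes and had more than 12 reads per fish in the pair of tissues. Differences are log2 ratios of the followed base to the other, tissue minus AF, the followed base being the one that marks the haplotype or, at both-base sites, the base of H/LHR replicate 2. None of the sites passed an FDR of 0.05 in this test, which had no term for the fish. This was 0 of 14 site and tissue tests for H, 0 of 203 for L (34 sites with enough reads) and 0 of 172 for LHR (26 sites), beside 1.21%, 1.3% and 0.896% of all tests in the same comparisons. At an unadjusted p under 0.05 there were 0, 6 and 6, beside 7.85%, 8.44% and 7.73% of all tests, and DESeq2 gave 0 in each class, beside 1.71%, 2.04% and 1.29%. Fisher's exact test on reads summed over fish gave 0, 3 and 3, beside 9.87%, 10% and 10% of all tests. The median size of the difference was 0.32 for H, 0.17 for L and 0.24 for LHR on the log2 scale. Over all sites it was 0.16 to 0.26 per comparison for H, 0.17 to 0.31 for L and 0.18 to 0.32 for LHR. The H median, from 14 tests, thus lay above the range of its own comparisons.

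Tissues with the same genotype and replicate number came from the same fish, and with a fish term (the replicate block) edgeR placed 2 sites past the FDR in 3 comparisons. For H this was 0 of 14 tests, beside 2.41% of all tests, for L 1 of 203, beside 2.94%, and for LHR 2 of 172, beside 2.66%. In the comparisons concerned the shares of all sites were 6.96% (L, DS1), 5.53% (LHR, DS1) and 4.27% (LHR, DSL). Both sites, on unplaced sequence, are named because of their values. At T3659203C, an LHR site, the reference base marked LHR. In AF it made up 26.8%, 30.1% and 20.9% of reads in H/LHR replicates 1 to 3, and 31.6%, 22.2%, 21.6% and 17.7% in L/LHR replicates 1 to 4. In DS1 it made up 44.4%, 68.2% and 38.7% in the H/LHR fish, and 33.3%, 40%, 40.7% and 26.1% in the L/LHR fish. In DSL it made up 31.6%, 55.7% and 25.6% in the H/LHR fish, and 40%, 54.5%, 33.3% and 47.5% in the L/LHR fish. The DS1 and the DSL value were each above the AF value in all 7 fish, although the ranges over fish overlapped.

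Summed over the fish, the LHR base at T3659203C was 24.5% of 387 reads in AF (95% Clopper-Pearson interval 20.3% to 29.2%), 41.9% of 217 in DS1 (35.3% to 48.8%) and 41.8% of 239 in DSL (35.5% to 48.4%). With the fish term the log2 difference was 1.18 in DS1 (edgeR FDR 0.0207) and 1.12 in DSL (FDR 0.0241), and without it 1.14 (FDR 0.138) and 1.10 (FDR 0.0812). The exact sign-flip test over the 7 fish gave p = 0.0156 in each, the smallest p that 7 fish allow. It is no separate support, since the edgeR result in the same fish chose the site, and it is not adjusted for that choice. In DS2 the share was 38.5% and the exact test gave p = 0.109 (n = 7), and in DS3 it was 35.8% with an exact p of 0.0625 (n = 7). The share in DS4, 43.9% of 82 reads (33.0% to 55.3%), was the highest of the 8 tissues. The exact test over the 4 fish with LHR and a DS4 library gave p = 0.5. In Pter and DF it was 28.2% and 28.1%, with exact p of 0.812 and 0.594.

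At G11743172A, an L site, the alternate base marked L. In AF it made up 28.3%, 32.5%, 22.2% and 30.7% of reads in H/L replicates 1 to 4, and 15.6%, 28.2%, 23.9% and 16.2% in the L/LHR fish. In DS1 it made up 66.7%, 61.4%, 60% and 44.3% in the H/L fish, and 26.0%, 33.8%, 26.1% and 28.6% in the L/LHR fish, where H/L replicates 1 and 3 had only 3 and 10 reads. All 8 fish were higher in DS1 than in AF. Every H/L fish lay above every L/LHR fish in DS1, and also with all tissues summed (28.0% to 38.4% against 20.9% to 27.2%). This separation was seen after the site was chosen, and how many other sites share it was not counted. The DS1 difference was 0.97 with the fish term (edgeR FDR 0.0118) and 0.91 without it (FDR 0.195). The exact sign-flip test gave p = 0.00781, the smallest for 8 fish. This p too is unadjusted and no separate support, since the edgeR result in the same fish chose the site. In DS2 the mean log2 difference from AF was 0.49, with 7 of 8 fish higher (exact p = 0.0156), and in DF it was 0.40, with 6 of 8 higher (exact p = 0.0547). In Pter and DSL it was 0.19 and 0.22 (n = 8, exact p = 0.664 and 0.328), and in DS3 and DS4 it was -0.04 and -0.24 (n = 8 and 5, exact p = 0.938 in each). Of the reads at this site 21.4% had low mapping quality, and it stood close to both share limits of the rule. Whether mapping has a part in the difference was not tested.

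The deepest site showed no such difference. At G20059134A the LHR base made up between 49.5% (DS4) and 52.5% (DS3) of reads in every tissue, and 52.2% of 4180 reads in AF (interval 50.7% to 53.8%). At G3946110C on chromosome 4 the shares of the followed base lay between 45.5% and 48.6% over tissues, and at G15892123A on chromosome 13 the H base lay between 45.8% and 52.6%.

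**Figure D4:**
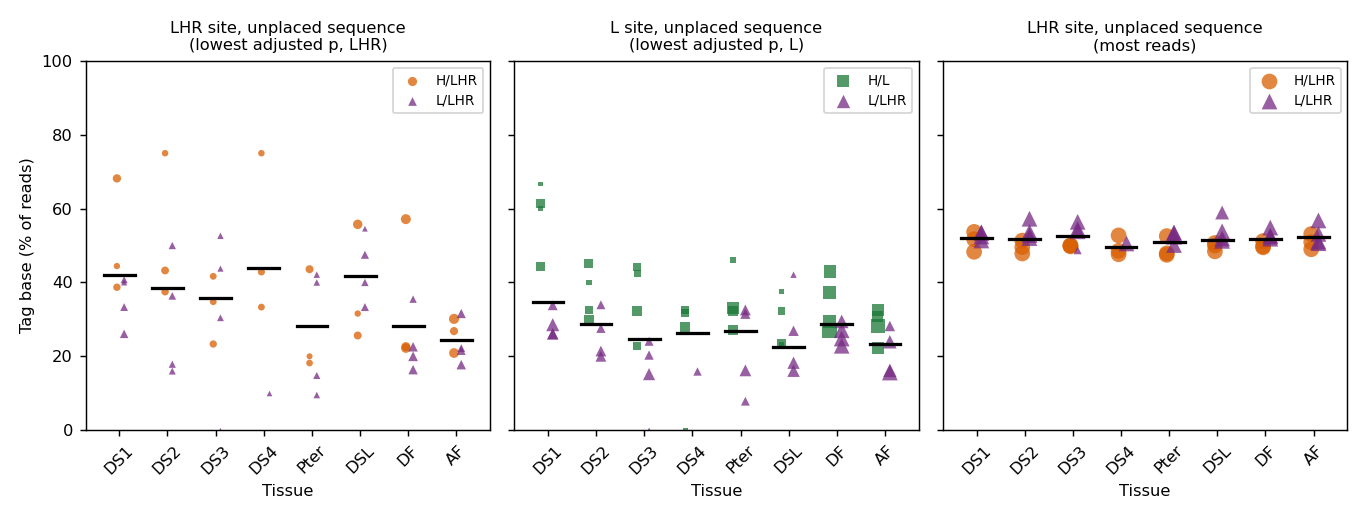
Share of the haplotype-marking base (vertical axis, % of reads) by tissue in single heterozygous fish (symbols by genotype, larger with more reads) and summed over fish (black bars) at 3 sites on unplaced sequence. At the LHR site on the left the bars stand at 41.9% in DS1 and 24.5% in AF, and at the deepest site on the right they stay between 49.5% and 52.5%.

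For the 13 loci named by their number of sites, reads were summed over the sites of a locus and each tissue was set against AF by the exact sign-flip test over fish. Of 91 such tests 3 had an unadjusted p under 0.05, and the median size of the mean log2 difference was 0.15. The H site A27054517T was lower in DS1 than in AF in 6 of 6 fish, with a mean difference of -1.47 ± 0.83 (SD, n = 6, exact p = 0.0312, the smallest possible). It had too few reads per fish to enter the DS1 fit across all sites. At the chromosome 4 locus the difference in DF was 0.10 ± 0.13 (SD, n = 8, exact p = 0.0469), and at the LHR locus at 2009656 in DS2 it was 0.25 ± 0.23 (SD, n = 7, exact p = 0.0312). These p-values are not adjusted for the 91 tests.

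The number of reads at a site, both bases together, was compared between carriers and non-carriers of the haplotype, summed over the 7 tissues that every fish had. edgeR's quasi-likelihood test on all 208804 sites found 0 of 3 H sites, 1 of 42 L sites and 0 of 29 LHR sites past an FDR of 0.05, beside 0.00239%, 0.0345% and 0.0115% of all sites. DESeq2 gave 0, 3 and 0, beside 0.0594%, 0.175% and 0.0604%. At an unadjusted p under 0.05 there were 0 of 3 H, 9 of 42 L and 3 of 29 LHR sites, beside 4.35%, 8.33% and 6.09% of all sites. The 9 include C3096381T with G3097639A and C9588416T with G9588519A, pairs from the same loci, so they are not all separate measurements. The median log2 difference of carriers minus non-carriers was -0.02 for the H sites, 0.12 for the L sites and -0.23 for the LHR sites, and it lay between -0.01 and 0.01 over all sites. Of the LHR sites 7 of 29 were positive, but 10 of the 29 belong to the same locus and share reads. In tissue pieces, fewer cells of a type and less RNA per cell cannot be told apart.

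The L site past the threshold was C3096381T on unplaced sequence, where the alternate base marked L. Its level, in RPM after TMM scaling, was 3.41, 3.42, 3.68 and 3.28 in H/L replicates 1 to 4 and 4.56, 4.32, 4.04 and 4.11 in L/LHR replicates 1 to 4. In H/LHR replicates 1 to 3 it was 2.09, 2.09 and 1.92. The log2 difference of carriers minus non-carriers was 0.91 (edgeR FDR 0.00939), where 0.0153% of all sites passed the FDR with higher values in L carriers. With the replicate number as a block, which groups different fish, the FDR was 0.0644. Without H/LHR replicate 2 it was 0.102, and there 0 of all 208804 sites passed.

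Divided by base, and scaled by library totals, C3096381T had 2.22 RPM ± 0.0576 of the reference base in the H/L fish (SD, n = 4), 2.93 RPM ± 0.113 in the L/LHR fish (n = 4) and 1.92 RPM ± 0.0934 in the H/LHR fish (n = 3). The alternate base had 1.29 RPM ± 0.186, 1.22 RPM ± 0.0986 and 0 RPM. At this site, fish with a single L haplotype thus had no less of the reference base than fish with none. Of its reads 11.96% had low mapping quality. G3097639A, 1258 bases away, had a log2 difference of 0.56 (edgeR FDR 0.534, DESeq2 FDR 0.0272). DESeq2 placed 3 L sites past the FDR, these 2 (C3096381T with FDR 1.63e-16) and A17458536C.

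Beside G3097639A, the L sites next in the order of the edgeR test were A17458536C on chromosome 8, with a difference of 0.76 (edgeR FDR 0.232, DESeq2 FDR 0.000653) and 26.8% of reads of low mapping quality, and C9588416T on unplaced sequence, with 0.56 (FDR 0.561) and 24.8%. At A17458536C the reference base had 1.56 RPM ± 0.199 in the H/L fish, 1.23 RPM ± 0.349 in the L/LHR fish and 1.29 RPM ± 0.247 in the H/LHR fish, and the alternate base had 0.853 RPM ± 0.0652, 0.961 RPM ± 0.106 and 0 RPM. In the same order the reference base had 1.08 RPM ± 0.0698, 1.38 RPM ± 0.111 and 1.31 RPM ± 0.180 at C9588416T. Its mean there was lower in H/L than in H/LHR. At G3097639A it had 2.76 RPM ± 0.266, 2.41 RPM ± 0.441 and 2.33 RPM ± 0.410. G9588519A, 103 bases from C9588416T, went the other way with -0.81 (FDR 0.592), so neighbouring sites did not share a direction. The part of mapping quality in these levels was not tested.

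**Figure D5:**
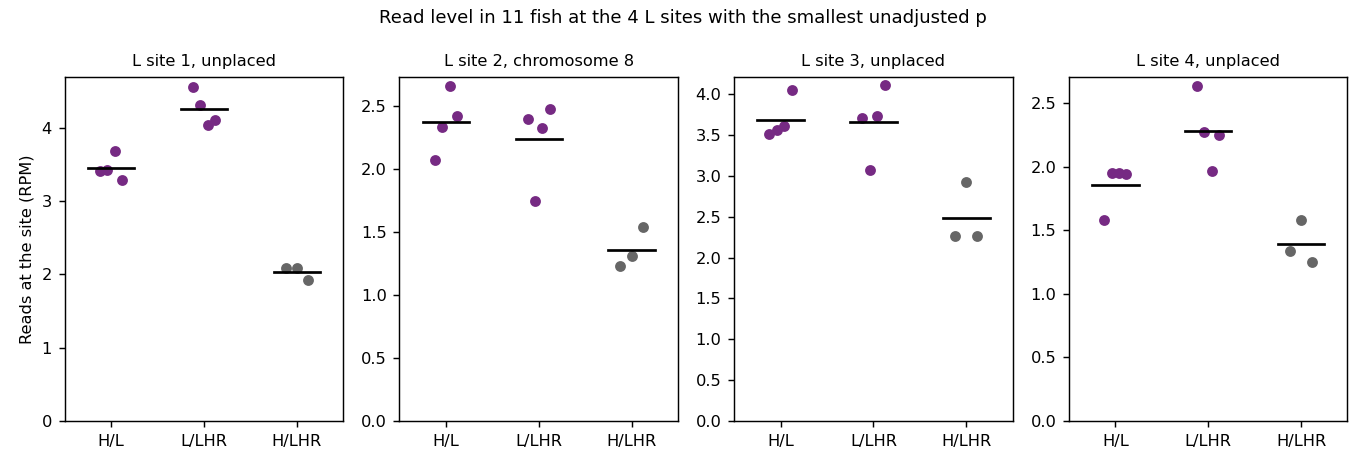
Reads at a site (vertical axis, RPM after TMM scaling) in single fish (points) with the mean (bar) for L carriers (H/L and L/LHR) and non-carriers (H/LHR), at the 4 L sites with the smallest unadjusted p. At the first site the 8 carriers lie between 3.28 and 4.56 RPM and the 3 non-carriers between 1.92 and 2.09 RPM.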

How the data were processed

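The authors aligned stranded mRNA reads to a reference-guided *Apeltes* assembly and counted reference and alternate bases per site. The tools named in the submitters' processing notes were Trim Galore, cutadapt 2.4, FastQC 0.11.9, STAR, Picard 2.23.4, SAMtools 1.10 and GATK 4.1.4.1. The deposited values were raw counts per site and library, with reads of low mapping quality counted apart. Alignment to 1 reference can favour the reference base. Reads were summed per fish to apply the rule. Sites and lists were chosen with earlier results of these data known. Named were, per class, the 5 loci with the most sites and the 2 deepest sites, sites next to each limit, sites past an FDR of 0.05 and the study's HOXDB variants.

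Allele ratios and levels were tested on counts with edgeR 4.0.16 in R 4.3.3, with Benjamini-Hochberg adjustment over all sites of a comparison, and DESeq2 1.42.0 as an alternative. Sign-flip tests added 0.5 to each count. Tissue libraries were paired by the fish number in their titles. Correlations of a tissue's deviations with those of AF in the same fish ranged from -0.09 to 0.80 over 148 pairs. On simulated data for L, DS3 against AF (1946 sites), the test without a fish term recovered 52 of 100 sites changed by 1 log2 unit and 93 of 100 changed by 2. For H (2316 sites) it recovered 29 and 86 of 100, and for LHR (1845 sites) 22 and 85. For a level contrast on 20000 sites it recovered 69 and 100 of 100. With a fish term, the DS3 test recovered more of the sites changed by 1 log2 unit: 47 (H), 66 (L) and 64 (LHR) of 100. Unchanged sites called in the DS3 tests numbered 1, 3 and 5 with the fish term and 0 in each class without it. In the level contrast 9 unchanged sites were called. The spread between fish in the simulated DS3 data was set in advance, not estimated from these data. Fish were the replicates, and fish of a clutch may be siblings.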

Additional observations from a re-analysis of the deposited data

Results flagged for a closer look

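In 116 groups of 4 fish (a site in the H/L or the L/LHR fish), 5 had a fish whose share of the followed base stood far from the others, by a criterion that chance meets in about 1 in 20 groups. Groups of 3 fish were not examined. On chromosome 19 these were H/L replicate 2 at G305785A (46.0%, the others 40.6% to 40.9%), L/LHR replicate 1 at G374599A (53.0%, the others 43.1% to 43.6%) and H/L replicate 1 at G392030T (33.3%, the others 20.0% to 22.2%). On chromosome 4 it was H/L replicate 4 at T3946420A (50.4%, the others 48.0% to 48.3%), and on unplaced sequence L/LHR replicate 1 at G11924171A (54.7%, the others 45.1% to 45.3%).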

How the results depend on the processing

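The number of sites that met the rule depended on the fish and the limits. With each fish left out it ranged from 3 to 42 for H, 42 to 120 for L and 29 to 71 for LHR. The rule requires a state in every fish, so leaving out a fish can only keep or add sites, and the lower ends are the full counts. The most followed from leaving out L/LHR replicate 1 (H), H/LHR replicate 3 (L) and L/LHR replicate 2 (LHR). Both-base sites were 0 of the 42 for H, 27 of the 120 for L and 42 of the 71 for LHR. A minimum of 50 reads left 1 H and 26 L sites, and heterozygosity from 30% left 17 LHR sites. As settings chosen after seeing the data, the same base in every homozygous fish left 12 L sites, and at most 10% of reads of low mapping quality left 16 LHR sites. Site and tissue tests of the ratio past the FDR numbered 0 in each class without a fish term. The fish term gave 1 such test for L and 2 for LHR, both of the latter at T3659203C. Fisher's exact test on summed reads gave 3 and 3, where it called 10% of all tests in both classes. For L these were G11743172A in DS1 and G3097639A in DS1 and DS3. For LHR all were at T3659203C, in DS1, DS2 and DSL. No fish left out changed these counts of 0. For the read level, 1 L site passed in the main test. The count was 0 with AF reads alone and 0 without H/LHR replicate 2, settings in which 0 of all sites passed. It was also 0 with the replicate number as a block, where 16 of all sites passed in each direction, and 3 with DESeq2. Over the fish left out it ranged from 0 to 1. The log2 difference at C3096381T was 0.87 to 0.93 over the fish left out and 0.84 to 0.99 in the other settings. Replicate numbers of different genotypes name different fish. Deviations of same-numbered fish correlated between -0.21 and 0.41 over 10 pairs, and 5 of 11 fish correlated best with their own number. Tests of ratios were limited by depth and by the number of sites. Enough reads in any comparison were found at all 3 H sites, 34 of 42 L sites and 26 of 29 LHR sites. The 3 H sites gave only 14 site and tissue tests.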
